A study of Mus musculus with 24 samples.

Results

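Adrenal glands of castrated male wild-type mice (castrated M WT, 3 arrays) were set against adrenal glands of sham female wild-type mice (sham F WT, 3 arrays), 6 of the 24 one-colour Agilent arrays of the series. Both groups were taken by their labels, and only features on autosomes were counted. They are C57BL/6 mice that lack testicular androgen, one group through castration and the other through sex. The series also holds sham males, testosterone-injected females and the same 4 groups in mice null for Kcnk3, the gene of a background potassium channel, with 3 arrays in each group. Sham M WT (3 arrays) gives the difference between the sexes before castration, and testosterone F WT (3 arrays) was read for levels only. The Kcnk3 null groups castrated M null (3 arrays) and sham F null (3 arrays) give the same comparison. Their group means do not enter the first comparison, but their spread does, since 1 fit covers all 24 arrays. Age, the interval after castration and the dose of testosterone are not given in the sources used here, and nothing says whether an array holds 1 animal or a pool, so p-values measure the spread between these arrays.

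The adrenal cortex makes corticosteroids from cholesterol under the control of ACTH. In mice its innermost layer is the X-zone, a transient layer that regresses in males at puberty and lasts longer in females, and androgen is known to make it regress. A gland without testicular androgen can therefore differ from a male gland in its layers as well as in the genes of each cell. In RNA of a whole gland, fewer cells of a type and less RNA per cell cannot be told apart.

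A level is the log2 processed signal of a probe minus the 75th percentile of its array, and a difference is a difference of mean levels with the standard error (SE) of a limma fit over all 24 arrays. A feature is 1 gene, or 1 probe without a gene name, and it was called when limma's p, adjusted by Benjamini-Hochberg over 31059 features, lay under 0.05. Of these, 29612 were autosomal and 18567 of the autosomal ones had a symbol. Levels of different genes are not compared, since each probe has its own brightness.

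Several arrays carried signal that goes against their labels. The Y-linked genes Ddx3y and Eif2s3y read 1.20%, 25.4% and 45.5% of their sham M WT level in sham F WT arrays 1, 2 and 3. They read 19.3% to 35.9% in testosterone F WT arrays. Xist, the RNA that silences an X chromosome in females, read 187%, 39.0% and 52.5% of its sham F null level in sham F WT arrays 1, 2 and 3. Abhd1 has a probe that reads higher in null than in WT arrays. It stood at 6.50%, 20.05% and 19.2% of its castrated M null level in castrated M WT arrays 1, 2 and 3. In sham F WT arrays it stood at 4.68% to 8.29%. In testosterone F WT arrays 1, 2 and 3 it read 37.5%, 20.8% and 40.3%, against 55.3% in the lowest null array. Kcnk3 read 65.8% to 86.6% of its sham WT mean in castrated M WT arrays and 108% to 147% in sham F WT arrays. In sham M WT arrays 1, 2 and 3 it read 88.0%, 83.3% and 53.1%. It read 11.9% to 37.4% in castrated M null and sham F null arrays. In sham M null arrays 1, 2 and 3 it read 28.4%, 51.6% and 25.9%. Where its probe lies relative to the deleted part is not given in the sources used here. RNA integrity numbers were 8 to 9 in castrated M WT and 8, 8 and 3 in sham F WT, whose array 3 lay on a slide with 1 other array. Sham M WT array 3 read 7.39 for Alb, the liver's albumin gene, against -2.25 to 1.26 in castrated M WT and -3.43 to -0.14 in sham F WT. Between 57.0% and 64.7% of the spots on these 9 WT arrays were well above background, no spot was saturated, and 3 arrays per group limit the precision.

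The genes that differed between castrated M WT and sham F WT glands formed a small set, led by Saa3, uroplakins, Muc16, keratins and Slpi, and all were lower in castrated M WT. In castrated M WT against sham F WT, 21 of 29612 autosomal features were called (0.0709%), all 21 lower in castrated M WT and 0 higher. In all 21 the arrays of the 2 groups did not overlap, as in 13.2% of all autosomal features, and the choice by p favours such features. At an unadjusted limma p under 0.05 there were 1990 features (6.72%), 999 higher and 991 lower. With the replicate number as a block the adjusted count was 43, of which 3 were higher and 40 lower, and all 21 were among them. With only the 2 groups compared in the fit it was 0, with 1589 at an unadjusted limma p under 0.05. In sham M WT against sham F WT, 588 features were called (1.99%), 236 higher and 352 lower in sham M WT. In castrated M WT against sham M WT, 182 were called (0.615%), 152 higher and 30 lower in castrated M WT. These 3 comparisons share arrays, so their counts stand side by side and are not independent.

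**Figure D1:**
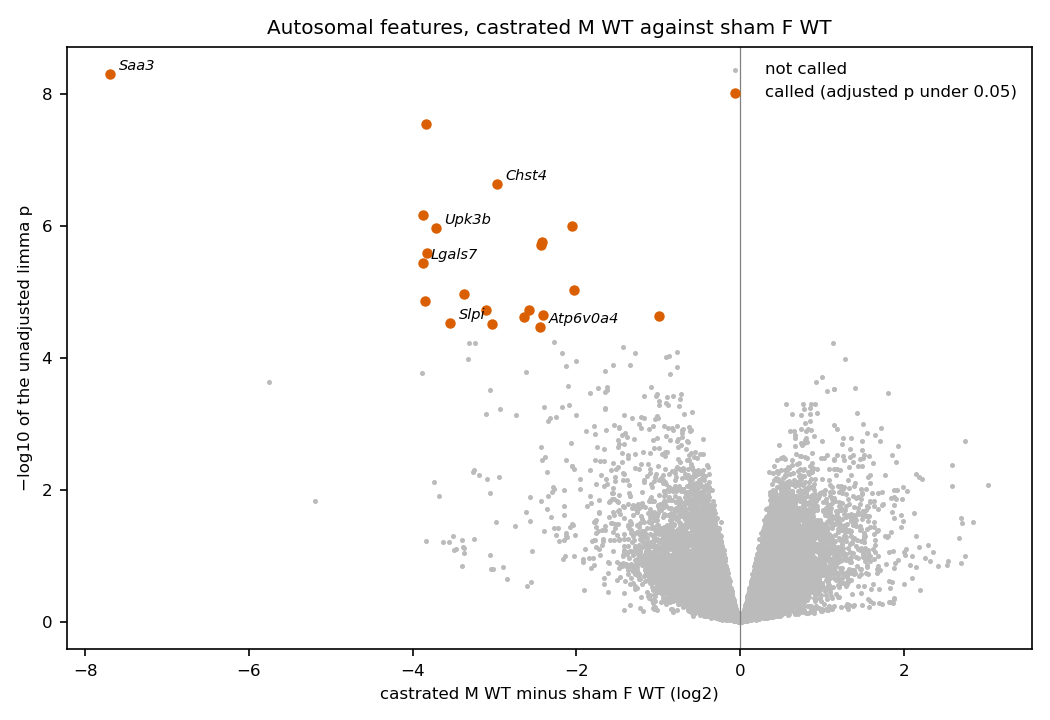
Difference in level between castrated M WT and sham F WT glands (log2, horizontal axis) against the −log10 of the unadjusted limma p (vertical axis), with 1 point per autosomal feature. The 21 called features, drawn in orange, all lie left of 0, and Saa3 lies farthest out at -7.69.

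The count changed with the arrays left out, both those that carry signal against their labels and others. Without sham F WT array 1, 2 or 3 alone, 10, 11 and 23 features were called, and array 1 had only 1.20% of the Y-linked signal. With sham F WT arrays 2 and 3 left out, which leaves 1 sham F WT array assumed to vary like the other groups, 141 features were called, 82 higher and 59 lower, and 9 of the 21 were among them. With castrated M WT arrays 2 and 3 left out, 14 were called, 8 higher and 6 lower, and 2 of the 21 were among them. The 18 called genes that have a usable symbol had median differences of -2.99 and -2.61 in these cases, against -3.07 over all arrays, and their sign is fixed by groups that do not overlap. Of these 18, 8 stayed called without sham F WT arrays 2 and 3, and 1, Saa3, without castrated M WT arrays 2 and 3. The part that the signal against the labels plays in the counts was not tested.

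The promoters of 3 genes are shown, 1 for each pattern described below: Muc16 was low in castrated and sham males, Akr1c18 read in the female range after castration, and Susd3 read between the 2 sham groups. Each is the 250 bases before the gene's start on its own strand, from RefSeq on GRCm38.p6. Capitals mark the half-site of the androgen and glucocorticoid receptors (AGAACA or TGTTCT) and the site of Nr5a1, also called SF-1 (CAAGGTCA or TGACCTTG), searched on both strands.
Muc16, chr9:18674604-18674853, minus strand: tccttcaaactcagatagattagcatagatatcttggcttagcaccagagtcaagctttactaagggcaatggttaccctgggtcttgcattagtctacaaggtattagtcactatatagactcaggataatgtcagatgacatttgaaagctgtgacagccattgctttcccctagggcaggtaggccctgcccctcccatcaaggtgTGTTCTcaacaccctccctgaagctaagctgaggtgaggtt
Akr1c18, chr13:4150647-4150896, minus strand: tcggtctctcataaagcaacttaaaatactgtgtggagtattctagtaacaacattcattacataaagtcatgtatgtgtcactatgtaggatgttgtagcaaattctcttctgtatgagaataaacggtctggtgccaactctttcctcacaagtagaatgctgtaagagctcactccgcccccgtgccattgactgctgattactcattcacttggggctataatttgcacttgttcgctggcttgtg
Susd3, chr13:49248295-49248544, minus strand: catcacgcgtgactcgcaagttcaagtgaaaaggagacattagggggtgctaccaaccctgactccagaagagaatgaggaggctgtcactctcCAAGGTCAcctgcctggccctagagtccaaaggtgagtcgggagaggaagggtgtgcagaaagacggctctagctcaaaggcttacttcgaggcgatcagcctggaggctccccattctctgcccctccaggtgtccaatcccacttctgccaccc
The half-site stood in 3 of the 13 called genes that have a promoter in the table (Mmp23, Muc16 and Krt42), and in 16.1% of 25748 autosomal promoters. The Nr5a1 site stood in 0 of those 13 and in 1.35% of all. It stood in 2 of 5 promoters (Kcnf1 and Susd3) of the 6 genes named below as highest in sham M WT. In the 5 promoters of the 6 genes lowest in sham M WT and not called after castration, it stood in 0. The half-site stood in 0 of 5 promoters in each of these 2 sets. A match is a description of these letters and not of a bound site.

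Saa3, an acute-phase serum amyloid A gene expressed outside the liver, differed most. Its probe lies at chr7:53970389-53970448 (mm9, the build of the probe positions). The level was -4.45, -3.90 and -4.09 in castrated M WT, and -3.52, -4.09 and -1.92 in sham M WT, against 4.75, 3.78 and 2.11 in sham F WT. All 3 castrated M WT arrays were below every sham F WT array, and they overlapped sham M WT. The difference from sham F WT was -7.69 ± 0.75 (SE, n = 3 against 3, limma adjusted p = 7.86e-05), a 207-fold lower level in castrated M WT.

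Upk1b and Upk3b encode uroplakins, proteins of the plaques on the surface of urothelium, and both were lower in castrated M WT. Upk1b read -5.08, -6.18 and -7.30 in castrated M WT and a mean of -5.55 ± 0.40 (SD, n = 3) in sham M WT, against -2.21, -1.89 and -2.85 in sham F WT. It was not well above background on any castrated M WT array, so that its level was at least 8.83-fold lower there (adjusted p = 0.00361), computed from the lowest well-detected signal of each array. Upk3b read -3.75, -4.93 and -6.29 in castrated M WT and -3.72, -4.21 and -3.59 in sham M WT, against -1.55, -1.22 and -1.05 in sham F WT, with 2 of the 3 castrated arrays well above background. Its difference from sham F WT was -3.72 ± 0.52 (adjusted p = 0.00424). The castrated M WT arrays lay below every sham F WT array for both genes.

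Muc16, a membrane mucin, and Msln, the surface protein mesothelin that binds it, were both lower after castration than in females. Muc16 read -2.09, -3.05 and -4.33 in castrated M WT and -2.73, -2.58 and -2.91 in sham M WT, against 0.76, 0.88 and 0.39 in sham F WT. Its difference from sham F WT was -3.83 ± 0.57 (adjusted p = 0.00739), 14.2-fold lower. Msln read 0.56, 0.17 and -0.47 in castrated M WT and 0.16, 0.52 and -0.06 in sham M WT, against 2.66, 2.55 and 2.30 in sham F WT. For both genes the castrated and sham male arrays overlapped each other and not the sham F WT arrays. Msln differed by -2.42 ± 0.35 (adjusted p = 0.00599), and it was named after its values were seen.

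The keratin genes Krt19 and Krt7 of simple epithelia were lower in castrated M WT, while Krt8 and Krt18, the keratins most widespread there, were not called. Krt19 read -2.61, -2.81 and -3.98 in castrated M WT and -2.58, -2.19 and -2.78 in sham M WT, against 0.01, 0.82 and -0.13 in sham F WT, a difference of -3.37 ± 0.56 (adjusted p = 0.0241). Krt7 read -5.19, -5.29 and -6.85 in castrated M WT and -5.05, -4.15 and -5.09 in sham M WT, against -2.70, -2.10 and -3.21 in sham F WT. No castrated M WT array measured Krt7 well above background, and its level was at least 6.89-fold lower there (adjusted p = 0.0321). Krt8 differed by -3.09 ± 1.01 (adjusted p = 0.536) and Krt18 by -1.76 ± 0.78 (adjusted p = 0.685). Krt42, another keratin gene, named after its values were seen, differed by -2.40 ± 0.43 (adjusted p = 0.0356).

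Slpi, a secreted inhibitor of neutrophil elastase, read 1.53, 1.48 and -0.32 in castrated M WT and 1.70, 2.02 and 1.33 in sham M WT, against 5.60, 4.50 and 3.21 in sham F WT. Its level was 11.7-fold lower in castrated M WT (difference -3.54 ± 0.64, adjusted p = 0.0402). Chst4, a sulfotransferase that acts on N-acetylglucosamine, read -4.82, -5.17 and -5.44 in castrated M WT and -4.12, -4.11 and -4.31 in sham M WT, against -2.31, -1.96 and -2.28 in sham F WT. Here the castrated arrays lay below the sham M WT arrays as well as below the sham F WT arrays. Chst4 differed from sham F WT by -2.97 ± 0.37 (adjusted p = 0.00147), and castrated M WT differed from sham M WT by -0.97 ± 0.37 (adjusted p = 0.552).

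Another 3 of the genes with the largest differences read near or under background in castrated glands. Lgals7, a galectin of stratified epithelia, read -5.20, -4.97 and -7.32 in castrated M WT, with 1 array well above background, against -1.42, -1.70 and -2.73 in sham F WT (difference -3.88 ± 0.59, adjusted p = 0.00948). Bnc1, a zinc finger protein of epithelial and germ cells, was at least 3.80-fold lower (adjusted p = 0.0402). Atp6v0a4, a subunit of the proton pump known from renal intercalated cells, was at least 3.53-fold lower (adjusted p = 0.0419). Neither Bnc1 nor Atp6v0a4 was well above background on any castrated M WT array, and both were on every sham F WT array.

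The genes that follow were named after their values were seen. Adgrd1, an adhesion receptor coupled to G proteins, differed by -2.43 ± 0.36 (adjusted p = 0.00609). Fndc1, a protein with fibronectin type III domains, differed by -2.05 ± 0.29 (adjusted p = 0.00424), and the polarity gene Crb2 by -2.03 ± 0.34 (adjusted p = 0.0228). The metalloproteinase gene Mmp23 had the smallest difference, -0.99 ± 0.18 (adjusted p = 0.0356). Of the 21, 3 are probes without a gene name, with differences of -3.84, -2.64 and -2.58.

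Seen together, the 21 features were low in castrated and in sham males. The median over the 21 was -3.03 for castrated M WT against sham F WT, -2.57 for sham M WT against sham F WT and -0.41 for castrated M WT against sham M WT, where the medians over all autosomal features were -0.05, -0.01 and -0.05. Relative to each feature's mean over the 24 arrays, the median level was -1.65, -1.82 and -2.41 in castrated M WT and -1.58, -1.44 and -1.71 in sham M WT, against 1.04, 1.18 and 1.49 in testosterone F WT and 0.95, 1.23 and 0.59 in sham F WT. The choice of the 21 fixes the low levels in castrated M WT and the high levels in sham F WT. Of the WT groups outside that choice, sham M WT was low and testosterone F WT high on every array. The testosterone F WT arrays carried Y-linked and Abhd1 signal against their labels, and the part of that signal here was not tested. The median for sham M WT against sham F WT shares the sham F WT arrays that the choice used. Castrated M WT array 3 was the lowest of its group for 14 of the 21, and without it 7 features were called, all among the 21.

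**Figure D2:**
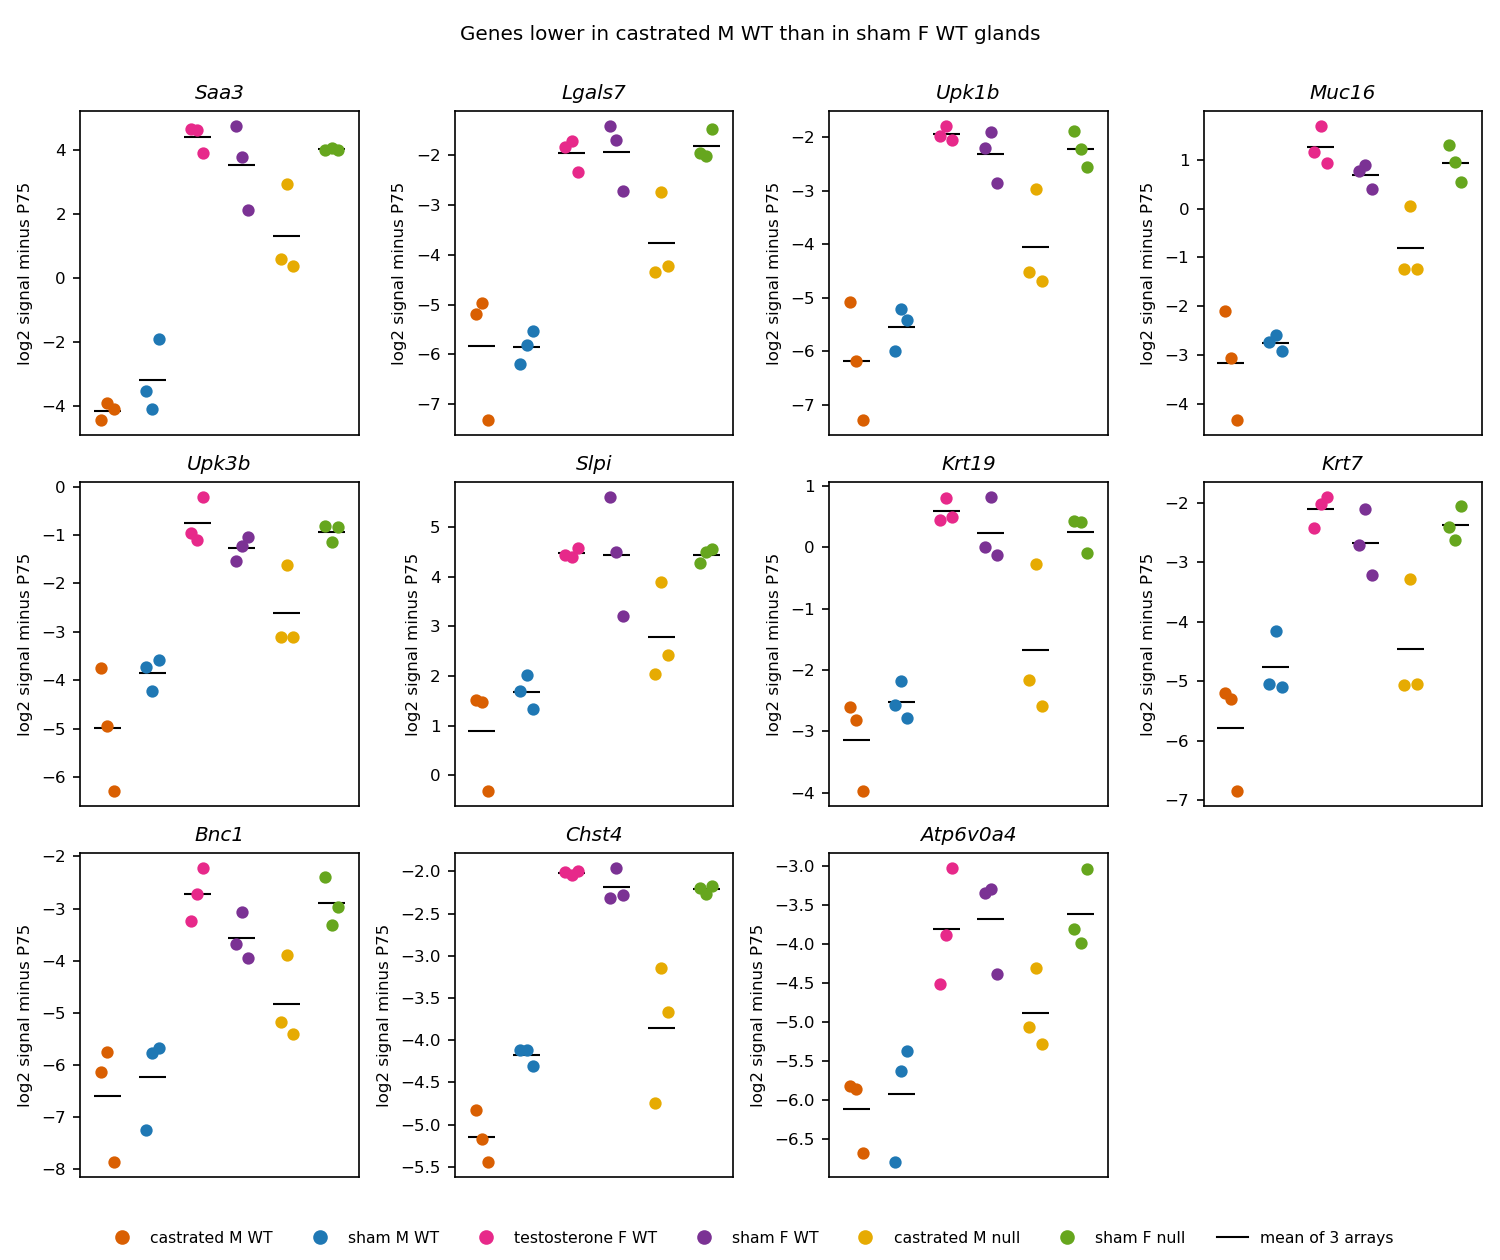
Level (log2 signal minus the array's 75th percentile, P75) of 11 genes among those with the largest called differences, with 1 point per array and a bar at the mean of 3 arrays. In WT glands castrated and sham males lie together below testosterone-injected and sham females, and 1 castrated M null array lies apart from the other two.

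The Kcnk3 null arrays, whose group means do not enter the comparison above, read in the same direction for most of these features. In castrated M null against sham F null, 20 of the 21 differences were below 0 and 20 had an unadjusted limma p under 0.05, where 771 of all 29612 autosomal features did (2.6%). The median over the 21 was -1.66, and in 19 of the 21 the 2 groups did not overlap, as in 8.65% of all autosomal features. Both comparisons use the same estimate of each feature's spread, and the choice of the 21 by p favours a small one. Small p-values and non-overlap in null arrays are therefore favoured by the choice, and the shares over all features are not a matched baseline. After adjustment 0 of the 21 and 0 of all autosomal features (0%) were called, with a smallest adjusted p of 0.0914. Saa3 read 0.59, 2.95 and 0.37 in castrated M null, against 4.00, 4.06 and 4.01 in sham F null, a difference of -2.72 ± 0.75 (adjusted p = 1, unadjusted p = 0.00187). Castrated M null array 2 stood apart from its group. Relative to the 24-array mean its median over the 21 was 0.44, against -1.09 and -1.08 in castrated M null arrays 1 and 3. The same array had 58.2% of the sham F null level of Xist, against 17.5% and 4.15%, and the part of that signal in the difference was not tested. Without it, 10 autosomal features were called in the null comparison, 9 of them lower in castrated M null.

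The difference between the genotypes was tested as an interaction, and 0 of 29612 autosomal features were called (0%), with 854 (2.88%) at an unadjusted p under 0.05 and a smallest adjusted p of 0.553. Saa3 had an interaction (WT minus null) of -4.98 ± 1.06 (adjusted p = 0.886). With sham F WT arrays 2 and 3 left out this comparison called 19 features, 18 of them above 0.

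Several of the called genes are known from mesothelium, the flat epithelium that covers abdominal organs. A list of 24 mesothelial genes was written after the values were seen, so its counts describe these arrays and test nothing. Of 23 measured members, 23 had a difference below 0 and 9 were called, against 0.0709% of all autosomal features, and the median difference was -1.76. The log2 summed level of the list was 7.00 to 7.33 in castrated M WT and 6.58 to 7.19 in sham M WT, against 7.93 to 8.93 in sham F WT. Msln and Muc16 were well above background on every array of the 3 groups. Wt1, a transcription factor of mesothelium and of other cells of the urogenital ridge, read -1.08, -2.23 and -2.46 in castrated M WT, against 0.20, -0.19 and -0.85 in sham F WT, and was not called (difference -1.64 ± 0.37, adjusted p = 0.165). The part of mesothelial RNA in the result was not tested.

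The X-zone genes read in the range of females after castration, and Akr1c18 and Pik3c2g were called higher in castrated M WT than in sham M WT. Akr1c18, the 20α-hydroxysteroid dehydrogenase that inactivates progesterone and marks the X-zone, read 8.34, 8.37 and 7.83 in castrated M WT and -3.27, -3.96 and -3.55 in sham M WT, against 8.54, 8.38 and 7.06 in sham F WT. Castrated M WT and sham F WT overlapped, and their difference was 0.19 ± 1.75 with a 95% interval of -3.48 to 3.86 (adjusted p = 0.988). Castrated M WT was higher than sham M WT by 11.77 ± 1.75 (adjusted p = 0.0021). The interval against sham F WT leaves room for a severalfold difference in either direction.

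Pik3c2g, a class II phosphoinositide 3-kinase also known from the X-zone, read 1.04, 1.88 and 1.22 in castrated M WT and -7.39, -7.43 and -6.46 in sham M WT, against 1.53, 1.63 and 0.56 in sham F WT. It was not well above background on any sham M WT array, and castrated M WT was at least 118-fold higher than sham M WT (adjusted p = 0.0034). The difference from sham F WT was 0.14 ± 1.35 (adjusted p = 0.989). Thrb, the thyroid hormone receptor beta of the same list, read 1.72, 1.93 and 1.51 in castrated M WT and 0.59, 0.67 and 0.68 in sham M WT, against 2.02, 2.08 and 1.00 in sham F WT. Castrated M WT differed from sham M WT by 1.07 ± 0.28, with an adjusted p of 0.119 and of 0.00675 with the replicate number as a block. All 3 X-zone genes were measured, and 0 of the 3 were called against sham F WT, where 0.0709% of all autosomal features were.

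Other genes low in sham males also read in or near the female range after castration, and Akr1d1, Frzb and Fa2h were each called higher in castrated M WT than in sham M WT. Akr1d1, the 5β-reductase of steroids, read 2.73, 2.60 and 2.70 in castrated M WT and -7.35, -6.21 and -3.04 in sham M WT, against 4.06, 3.90 and 1.40 in sham F WT. Frzb, a secreted antagonist of Wnt ligands, read 3.40, 2.92 and 2.37 in castrated M WT and -2.69, -1.996 and -2.94 in sham M WT, against 3.92, 3.92 and 2.73 in sham F WT. Fa2h, which adds a hydroxyl group to fatty acids, read 1.98, 2.58 and 2.16 in castrated M WT and -6.96, -4.17 and -7.95 in sham M WT, against 0.94, 1.41 and 0.60 in sham F WT. Castrated arrays overlapped sham F WT for Akr1d1 and Frzb and lay above sham F WT for Fa2h. The differences from sham F WT were -0.44 ± 1.20 for Akr1d1, -0.63 ± 0.56 for Frzb and 1.25 ± 1.07 for Fa2h, with adjusted p-values of 0.949, 0.864 and 0.862. Of the sham M WT arrays, only 1 was well above background for Akr1d1 and 1 for Fa2h, and all 3 for Frzb.

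A list of 4 genes repressed by androgen in earlier results of these data (Cst8, Nrep, Mmel1 and Ms4a10) was read in the same way, and is not independent evidence. None of the 4 was called against sham F WT, where 0.0709% of all autosomal features were. All 4 were higher in castrated M WT than in sham M WT. Cst8, a cystatin-related gene, read 2.83, 3.40 and 2.64 in castrated M WT and -1.34, -1.63 and -1.16 in sham M WT, against 3.39, 3.56 and 1.79 in sham F WT (difference from sham F WT 0.04 ± 0.44). Ms4a10, of the membrane-spanning 4A family, stood part of the way, at 1.44, 1.26 and 0.77 in castrated M WT and -1.03, -0.91 and -0.87 in sham M WT, against 3.11, 2.68 and 2.10 in sham F WT. Its difference from sham F WT was -1.47 ± 0.41 (adjusted p = 0.339), without overlap between the groups.

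Of the 6 genes highest in sham males, Susd3, Crym and Acan read between the 2 sham groups on every castrated array. Susd3, Crym and Acan formed a list taken from earlier results of these data, so its direction is not independent evidence. Susd3, a protein with a sushi domain, read -1.71, 0.41 and -0.70 in castrated M WT and 2.28, 1.73 and 1.23 in sham M WT, against -2.91, -3.19 and -3.68 in sham F WT. The 3 groups did not overlap, and the difference from sham F WT was 2.59 ± 0.88 (adjusted p = 0.563). Crym, a thyroid hormone binding protein, read -1.51, -0.19 and -0.55 in castrated M WT and 1.59, 1.44 and 1.55 in sham M WT, against -3.06, -1.77 and -1.57 in sham F WT. The lowest castrated array of Crym lay just above the highest sham F WT array, and the difference was 1.38 ± 0.40 (adjusted p = 0.409).

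Acan, the cartilage proteoglycan aggrecan, read -3.45, -1.41 and -1.85 in castrated M WT and 0.43, 0.17 and -0.22 in sham M WT, against -3.78, -4.05 and -3.49 in sham F WT. Kcnj4, an inwardly rectifying potassium channel, read -2.25, -0.76 and -1.17 in castrated M WT and 1.29, 1.21 and 0.68 in sham M WT, against -3.33, -2.53 and -2.01 in sham F WT. Castrated array 1 was the lowest of its group for these 4 genes, and it overlapped the sham F WT arrays for Kcnj4 but for none of the other 3. Crym and Kcnj4 were called lower in castrated M WT than in sham M WT, with adjusted p-values of 0.00819 and 0.0187, and Susd3 and Acan were not (0.483 and 0.116). Castrated array 1 also had the lowest Abhd1 signal of the 3, and the part of the Abhd1-marked RNA in arrays 2 and 3 was not tested. With arrays 2 and 3 left out, the difference from sham F WT was 1.54 for Susd3 and 0.62 for Crym.

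Cyp4f15, a fatty acid hydroxylase, was not well above background on any sham F WT array, and sham M WT was at least 5.26-fold higher (adjusted p = 0.0204). Castrated M WT read -7.14, -4.78 and -4.55 for it. Kcnf1, a modifying subunit of voltage-gated potassium channels, was well above background on all sham M WT arrays and on none of the castrated M WT or sham F WT arrays. Its level was at least 2.07-fold lower in castrated M WT than in sham M WT (adjusted p = 0.000343).

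**Figure D3:**
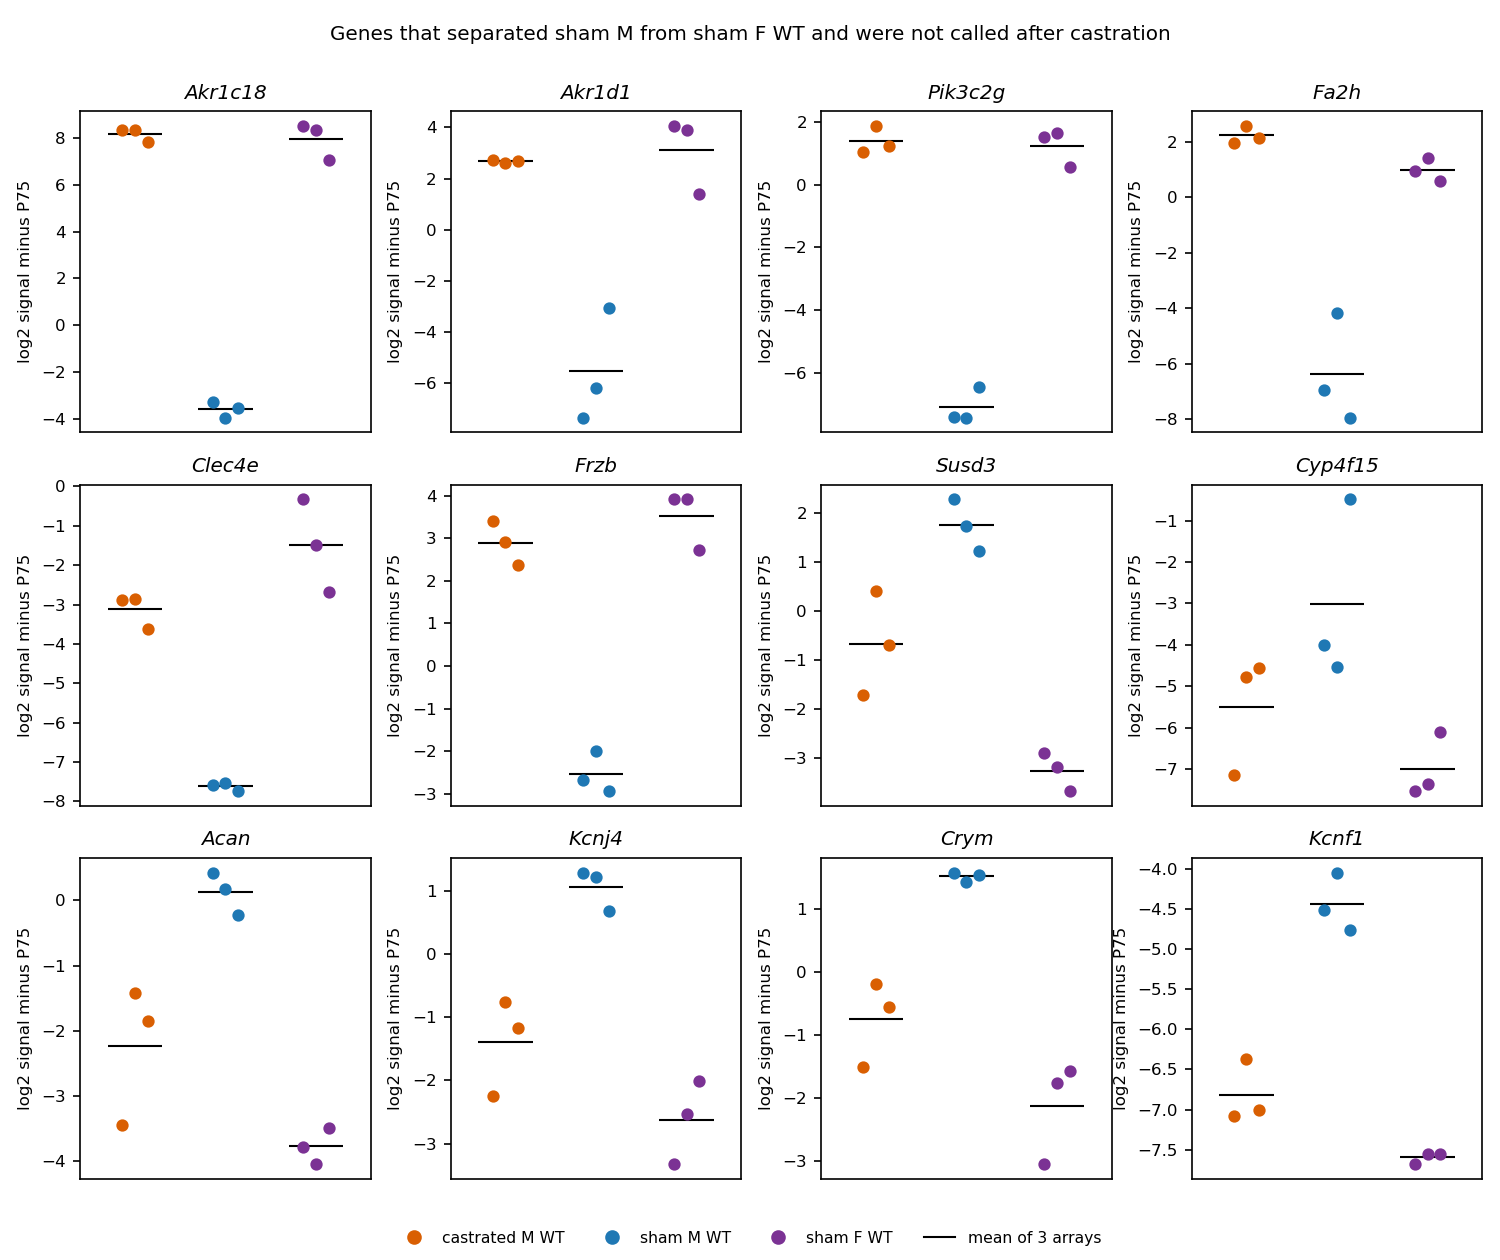
Level (log2 signal minus P75) of the 6 genes lowest and the 6 genes highest in sham M WT relative to sham F WT among those not called in castrated M WT against sham F WT, with 1 point per array and a bar at the mean. Akr1c18 and Pik3c2g overlap sham F WT after castration, Clec4e and Susd3 lie between the 2 sham groups, and Kcnf1 is under background in castrated M WT and sham F WT.

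Feature sets were also chosen by the adjusted p of a comparison of null arrays and read in WT arrays. The WT arrays enter that choice through the estimate of each feature's spread, since 1 fit covers all 24 arrays. In sham M null against sham F null, 209 autosomal features were called (0.706%), of which 102 were lower in sham M null and the others higher. That count was 49 to 148 without 1 array of the 2 groups, 43 with only these groups fitted and 16 without arrays of mixed sex signal. Sham M null arrays 1 and 2 had 19.5% and 18.3% of the sham F null level of Xist, and the part of that signal in the sets was not tested. Over the higher ones, the median difference in WT glands was 0.43 for castrated M WT against sham F WT and 1.06 for sham M WT against sham F WT, and 86.9% of them were above 0 in the first. Over the 102 lower ones, the medians were -0.18 and -0.56, and 64 of the 102 were below 0 in the first. Over all autosomal features the medians were -0.05 and -0.01, and 0.0709% were called in the first. Called in castrated M WT against sham F WT were 0 of the higher ones and 1 of the 102, Fndc1. Relative to the 24-array mean, the higher ones had a median level of -0.03, 0.22 and 0.03 in castrated M WT and 0.76, 0.73 and 0.65 in sham M WT, against -0.32, -0.18 and -0.25 in sham F WT. The 3 groups did not overlap in that median. The 102 had -0.24, -0.38 and -0.43 in castrated M WT and -0.73, -0.67 and -0.85 in sham M WT, against -0.02, -0.21 and -0.26 in sham F WT, where castrated and sham F WT arrays overlapped. With castrated M WT arrays 2 and 3 left out, the medians for castrated M WT against sham F WT were 0.26 and -0.06.

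**Figure D4:**
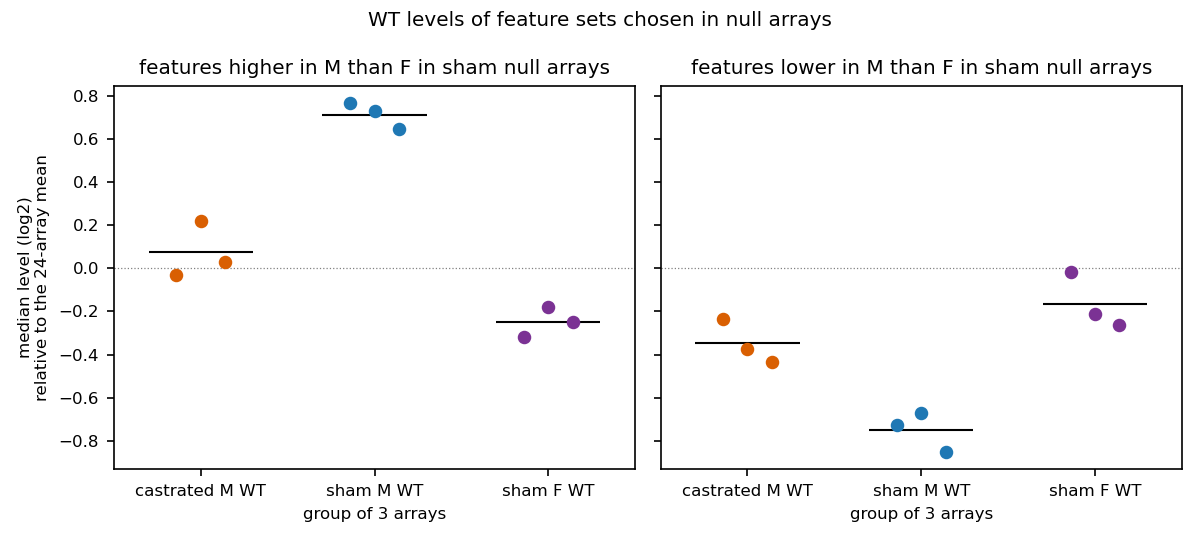
Median level in WT glands, relative to the mean of all 24 arrays (log2), of the features that were higher (left) and the 102 that were lower (right) in sham M null than in sham F null arrays, with 1 point per array and a bar at the mean of 3 arrays. In the left panel, castrated M WT arrays lie between -0.03 and 0.22, between the sham M WT and the sham F WT arrays.

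Genes of steroid synthesis had differences from sham F WT that were not called. Of 12 measured genes in a list of steroid synthesis, which includes Cyp17a1, 0 were called in castrated M WT against sham F WT. Of the 12, 11 lay below 0 and 3 had an unadjusted limma p under 0.05, with a median of -0.29. Over all autosomal features 0.0709% were called, 6.72% had such a p, and the median was -0.05. Por, the reductase that gives electrons to microsomal P450 enzymes, read 4.84, 4.87 and 5.13 in castrated M WT and 4.85, 4.99 and 5.08 in sham M WT, against 5.91, 5.59 and 5.96 in sham F WT. Both male groups lay below every female array, and the difference of castrated M WT from sham F WT was -0.87 ± 0.18, with an adjusted p of 0.0849 and of 0.0266 with the replicate number as a block. Star, which carries cholesterol into mitochondria, read 7.07, 7.14 and 6.84 in castrated M WT and 6.82, 6.76 and 6.89 in sham M WT, against 8.03, 7.48 and 7.49 in sham F WT (difference from sham F WT -0.65 ± 0.19, adjusted p = 0.433).

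Cyp11b2, the aldosterone synthase of the outermost layer, read -1.04, 0.42 and -0.18 in castrated M WT and 0.46, -0.48 and -0.19 in sham M WT, against 0.83, 0.79 and 1.62 in sham F WT (difference from sham F WT -1.35 ± 0.49, adjusted p = 0.588). In null glands the same difference was 1.60 ± 0.49 (adjusted p = 1), and the interaction was -2.95 ± 0.69 (adjusted p = 1, unadjusted p = 0.00043). Nr5a1, the nuclear receptor that sets steroidogenic cell identity, read 5.94, 5.99 and 5.57 in castrated M WT and 4.79, 4.84 and 4.86 in sham M WT, against 6.81, 6.36 and 6.18 in sham F WT. The 3 groups of Nr5a1 did not overlap, and castrated M WT differed from sham F WT by -0.62 ± 0.26 (adjusted p = 0.653). Of the 8 genes of adrenal cortex identity, 0 were called, against 0.0709% of all autosomal features. Of these 8, 7 lay below 0 and the median was -0.37, against -0.05 over all autosomal features. Their log2 summed level was 10.11 to 10.40 in castrated M WT against 10.45 to 10.99 in sham F WT.

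**Figure D5:**
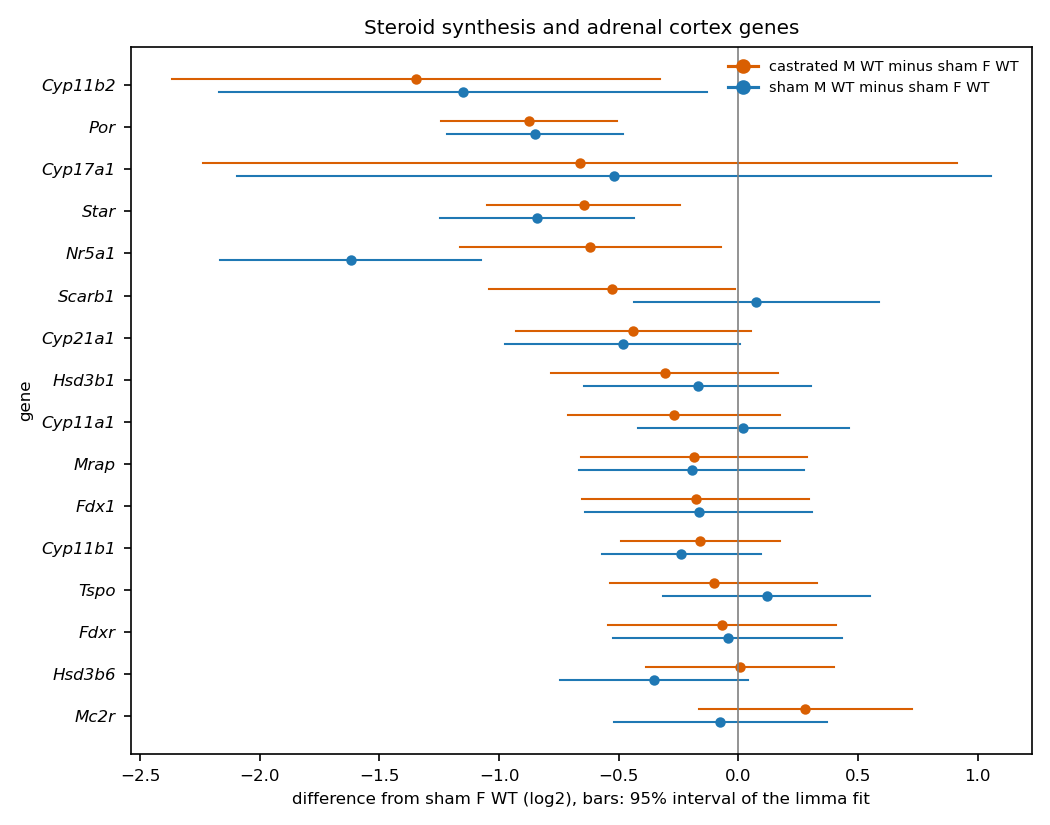
Difference in level from sham F WT (log2, horizontal axis) of genes of steroid synthesis and adrenal cortex identity, for castrated M WT in orange and sham M WT in blue, with bars for the 95% interval of the limma fit. Por is at -0.87 and Star at -0.65 in castrated M WT, and none of the castrated M WT differences shown was called.

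Of 13 innate immune genes measured, 1 (Saa3) fell and 0 rose against sham F WT. The differences of 11 lay below 0 and 5 of the 13 had an unadjusted limma p under 0.05, with a median of -1.11. Over all autosomal features 0.0709% were called, 6.72% had such a p and the median was -0.05. Acod1, which makes itaconate in activated macrophages, read -4.57, -4.51 and -4.04 in castrated M WT and -7.12, -6.52 and -6.17 in sham M WT, against -2.64, -1.12 and -2.31 in sham F WT. Clec4e, a macrophage receptor for mycobacterial glycolipid, read -2.89, -2.86 and -3.62 in castrated M WT and -7.59, -7.53 and -7.74 in sham M WT, against -0.32, -1.49 and -2.69 in sham F WT. Both stood between the 2 sham groups, Clec4e on all arrays above every sham M WT array, with differences from sham F WT of -2.35 ± 0.59 for Acod1 (adjusted p = 0.249) and -1.62 ± 0.55 for Clec4e (adjusted p = 0.556). Among the members above 0, the chemokine gene Ccl2 read above every female array, at 1.29, 0.79 and 0.78 in castrated M WT and -2.26, -2.10 and -1.58 in sham M WT, against -0.61, -0.20 and -0.58 in sham F WT. Castrated M WT was higher than sham M WT by 2.93 ± 0.62 (adjusted p = 0.0325), and its difference from sham F WT was 1.41 ± 0.62 (adjusted p = 0.681).

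No other list had a called member in castrated M WT against sham F WT. Among hormone receptors 0 of 13 were called, and Prlr, the prolactin receptor, stood between the sham groups at 4.19, 4.15 and 4.02 in castrated M WT and 3.25, 3.31 and 2.95 in sham M WT, against 5.11, 4.90 and 4.65 in sham F WT. Among potassium channels 0 of 13 were called, and Kcnmb4, a subunit of calcium-activated channels, read -0.04, 0.26 and -0.04 in castrated M WT and 0.92, 1.13 and 0.20 in sham M WT, against -2.46, -1.19 and -1.31 in sham F WT (difference from sham F WT 1.71 ± 0.47, adjusted p = 0.321). The male groups of Kcnmb4 overlapped each other and not the females. Counts were 0 of 16 for ACTH signalling, 0 of 25 for cholesterol genes, 0 of 26 for Wnt genes, 0 of 12 for hedgehog and capsule genes and 0 of 19 for cell cycle genes. Their medians were -0.13, -0.21, 0.08, 0.05 and -0.35. Over all autosomal features 0.0709% were called and the median was -0.05. A count of 0 in a list of this size is therefore not a result about its genes.

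Markers of other cell types were read beside these results. The log2 summed level of 12 adipocyte genes was 9.96 to 10.13 in castrated M WT, against 10.19 to 10.68 in sham F WT. It was 4.08 to 4.21 in castrated M WT, against 4.39 to 5.23 in sham F WT for 11 genes of macrophages and lymphocytes, and 6.49 to 6.84 against 6.89 to 7.13 for 10 genes of capsule and stroma. These 3 lists did not overlap between the 2 groups, with 0 members called in each. Some lists that mark no cell type were also apart, among them hormone receptors (6.31 to 6.41 against 6.53 to 6.58). Potassium channels were another (6.48 to 6.75 against 6.81 to 7.00). Of all single autosomal features, 13.2% did not overlap between the 2 groups and 0.0709% were called. The ranges overlapped for 15 chromaffin cell genes, at 9.70 to 10.08 in castrated M WT against 9.32 to 10.13 in sham F WT, for 10 endothelial genes, at 6.07 to 6.20 against 5.94 to 6.09, and for 9 liver genes, at 2.92 to 4.03 against 3.09 to 3.89. The part of these cells in the differences was not tested.

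The precision of the arrays bounds what can be said of genes that were not called. Over all autosomal features, 55.8% had a 95% interval within 1 log2 unit of 0 in castrated M WT against sham F WT, and the median half-width of the interval was 0.63. For the other features a difference of that size was not excluded by these arrays.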

How the data were processed

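RNA of whole adrenal glands was labelled with Cy3, and each of the 24 samples (8 groups of 3) was read on an Agilent array of its own. Intensity values were deposited as scanner output of Agilent Feature Extraction 10.7.3.1, per the file headers, and the processed signal had its background subtracted by that software. A table of log2 values was also deposited; its centring and scaling are not given in the sources used here, and it served as an alternative only.

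Control spots and 160 to 283 outlier spots per array were left out, spots of a probe were averaged, and log2 signal minus the array's 75th percentile (signals of 423 to 1092) was used. Of 55681 probes, 36824 were well above background on at least 3 arrays. Names came through RefSeq (26413 probes by accession and 4594 by symbol) or from the file (2276), and 22398 had none. The probe with the highest mean stood for each gene. limma 3.58.1 in R 4.3.3 fitted 8 group means (16 residual degrees of freedom), with Benjamini-Hochberg adjustment over 31059 features and a threshold of 0.05. A gene not well above background on any array of a group has a bound in place of a fold.

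Genes were named by rule: the 12 largest called differences on each side without overlap, the members of gene lists with the smallest p, every X-zone gene, the 6 largest sex differences on each side called or not called after castration, the 6 largest for the null and genotype comparisons, and genes that check the labels. One called gene is not reported here. The members and lists were chosen with earlier results of these data known. Deviations of arrays that share a replicate number correlated at 0.243, 0.407 and 0.430 in castrated M WT and sham F WT. The correlations were 0.146 to 0.408 in castrated against sham M WT and 0.255 to 0.500 in the null comparison. In sham M WT against sham F WT they were -0.011, 0.274 and 0.168. The labels do not say that these numbers pair arrays, and arrays numbered 1 and 2 also lie on slides 1 and 2. The source of the correlations was not tested, and the main fit has no replicate block. The fit was tested on simulated data for castrated M WT against sham F WT: over 31059 features it recovered 29 of 100 log2 changes of 1 and 67 of 100 of 2, and called 4 unchanged features. Alternatives covered background correction, normalization, the dim-probe filter, blocks, RNA integrity, array weights and arrays left out.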

Additional observations from a re-analysis of the deposited data

Results flagged for a closer look

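Sex-linked genes lie outside the autosomal comparison and gave signal above the level in arrays of the right sex. Ddx3y and Eif2s3y, both Y-linked, read 25.4% and 45.5% of the sham M WT level in sham F WT arrays 2 and 3, against 1.20% in sham F WT array 1. Xist, the RNA that silences an X chromosome in females, read 17.5% and 58.2% of the sham F null level in castrated M null arrays 1 and 2, against 4.15% in array 3. In castrated M WT it read 1.00%, 0.810% and 0.560%. The source of these signals was not tested.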

How the results depend on the processing

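In castrated M WT against sham F WT the 21 calls became 43 with the replicate block, 11 with only probes well above background on all arrays, 12 with RNA integrity as a covariate, 141 without sham F WT arrays 2 and 3, 44 (19 higher, 25 lower, 5 of the 21 among them) without arrays carrying at least 10% of a signal of the other sex, and 0 with only the groups compared, where 1589 had an unadjusted limma p under 0.05. Leaving out 1 array gave 7 to 23: 7 and 13 without castrated M WT array 3 and 2, and 10 and 11 without sham F WT array 1 and 2. In sham M WT against sham F WT the 588 calls became 1325 with slide as a block and 970 with the replicate block. The labels do not say that the replicate numbers pair these arrays. The 588 became 1000 with RNA integrity, 1261 with array weights and 1085 without sham F WT arrays 2 and 3. They became 52 with only the groups compared, and 272 to 636 without 1 array. In castrated M WT against sham M WT the 182 became 317 with slide as a block, 1203 with array weights, 42 without castrated M WT arrays 2 and 3, 112 with only the groups compared, and 78 to 126 without 1 array. In castrated M null against sham F null the 0 became 2 with normexp and quantile normalization, 2 with the deposited log2 table, 1 with slide as a block, 6 with array weights, 2 with trended and robust variances, 4 without arrays of mixed sex signal, and 0 to 10 without 1 array. In sham M null against sham F null, which chose the sex sets, the 209 became 541 with slide as a block, 372 with the replicate block, 341 with RNA integrity, 1868 with array weights, 43 with only the groups compared, 16 without arrays of mixed sex signal, and 49 to 148 without 1 array. The genotype difference gave 19, 3 and 8 calls without sham F WT arrays 2 and 3, without castrated M WT arrays 2 and 3 and without arrays of mixed sex signal. The set medians of 0.43 and -0.18 became 0.275 and -0.0706 with normexp and quantile normalization, 0.278 and -0.0669 with the deposited table, and 0.261 and -0.0643 without castrated M WT arrays 2 and 3. The cause was not tested for any of these.

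The 18 called genes kept their call in 233 of 389 checks; their direction was fixed by groups that do not overlap wherever only arrays were left out. Saa3 kept its call in 21 of 22 alternatives and Bnc1 in 4 of 21. Among 93 other results, 1967 of 2024 checks kept their side of the threshold, 25 gained a call and 32 lost one. Differences near 0 changed sign 27 times in 9 uncalled results, among them Akr1c18, Pik3c2g and Thrb. The replicate block changed no other call named in the text than those of Por and Thrb. Dim probes in castrated glands give bounds only, and 3 arrays per group leave changes of 1 log2 unit often uncalled.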
